A study of Homo sapiens with 3 samples.

Results

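Chromosome 12q13 to 12q14 holds a cluster of genes around CDK4, the cyclin D-dependent kinase that phosphorylates the retinoblastoma protein, and this stretch of DNA is often amplified in alveolar rhabdomyosarcoma. The 10 genes examined, CDK4, TSPAN31, METTL1, OS9, GLI1, SHMT2, KIF5A, DTX3, DCTN2 and CYP27B1, were taken from the region by name, and every probe set naming only 1 of them was used. They have 18 probe sets of the 22215 that measure genes, and 10 of the 11963 genes named singly on the array. No probe set naming several genes included one of them. The genes were chosen by position, but from a list drawn up with the signals of these arrays in view, so levels and differences are given as a description and none carries a test. Copy number was not measured.

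RH30 is an established cell line from an alveolar rhabdomyosarcoma, a childhood tumour with skeletal muscle features. The cells were untreated, or received 10 µM of a peptide nucleic acid (PNA, a synthetic DNA mimic whose bases hang on a peptide-like chain) against the MYCN gene, or 10 µM of a mutated PNA described as inactive. RNA was taken at 12 hours, also in untreated cells per the title of that array, and the labels do not say if separate cultures were used. Each condition has 1 array, so no value has a replicate error and all differences are between single arrays. The array titled untreated carries a source name of mutated PNA. It is called untreated here after its title and treatment text, and any direction between the 2 controls rests on that label.

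An amplified chromosome segment carries many neighbouring genes along with the one that gives the tumour an advantage, and the extra copies can raise the transcripts of some passengers and leave silent genes silent. CDK4 drives cells from G1 into S phase when paired with a D-type cyclin. GLI1, the transcription factor at the end of the hedgehog pathway, is another growth gene of the region and is itself transcribed in response to hedgehog signalling. CDK4 is also a classical target gene of MYC-family factors, which bind the E-box CACGTG.

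The bases before the CDK4 start site are shown because the PNA of this study was aimed at a MYC-family gene. Those before TSPAN31 are shown because its brighter probe set read lower with the anti-MYCN PNA, where that of the adjoining CDK4 read higher. The CDK4 direction did not hold with quantile normalization, and the second TSPAN31 probe set hardly differed from mutated PNA. Both runs are the 250 bases before the start on the gene's strand, 5′ to 3′, from RefSeq on GRCh38.p14, with each CACGTG in capitals. CDK4 lies on the minus strand at chr12:57752311-57752560 and TSPAN31 on the plus strand at chr12:57744789-57745038.
CDK4: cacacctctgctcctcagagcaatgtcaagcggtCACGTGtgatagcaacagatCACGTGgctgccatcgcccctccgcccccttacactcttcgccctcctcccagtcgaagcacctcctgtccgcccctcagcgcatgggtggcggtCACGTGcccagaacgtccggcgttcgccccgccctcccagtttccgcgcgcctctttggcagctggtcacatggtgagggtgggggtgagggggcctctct
TSPAN31: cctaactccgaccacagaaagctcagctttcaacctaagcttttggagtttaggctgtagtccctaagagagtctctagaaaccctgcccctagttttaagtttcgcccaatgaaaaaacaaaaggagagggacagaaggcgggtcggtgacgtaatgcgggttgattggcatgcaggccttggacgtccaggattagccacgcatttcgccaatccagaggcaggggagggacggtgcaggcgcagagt

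CDK4 held 3 copies of CACGTG, which reads the same on both strands, beginning 216, 196 and 101 bases before the start. Of the 35116 promoter windows of the RefSeq table, each reaching from 250 bases before to 50 after a start, 7.26% held this motif and 33 windows (0.094%) held 3 or more. TSPAN31, OS9 and both DCTN2 windows held none, and these are the 4 of 10 genes with a promoter in the table. The GC box GGGCGG, searched on both strands and not overlapping the E-boxes, occurred 3 times before CDK4, once in the OS9 window and once in each DCTN2 window, and not in that of TSPAN31. It is common, in 45.0% of all windows. A match of letters shows no binding.

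On the arrays CDK4 was among the brightest transcripts of the cell line, and 7 of the 10 genes had their brightest probe set within the top 10% of gene probe sets on all 3 arrays. Those were CDK4, TSPAN31, METTL1, OS9, GLI1, SHMT2 and CYP27B1. The same held for 10.5% of all genes. DCTN2 lay just outside. DTX3 lay between the top 29.3% and the top 40.5% on the 3 arrays, and KIF5A between the top 59.1% and the top 79.9%. A rank depends on how well a probe set's probes bind as well as on the amount of RNA, so ranks are read here within a probe set across arrays or as a coarse level.

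**Figure D1:**
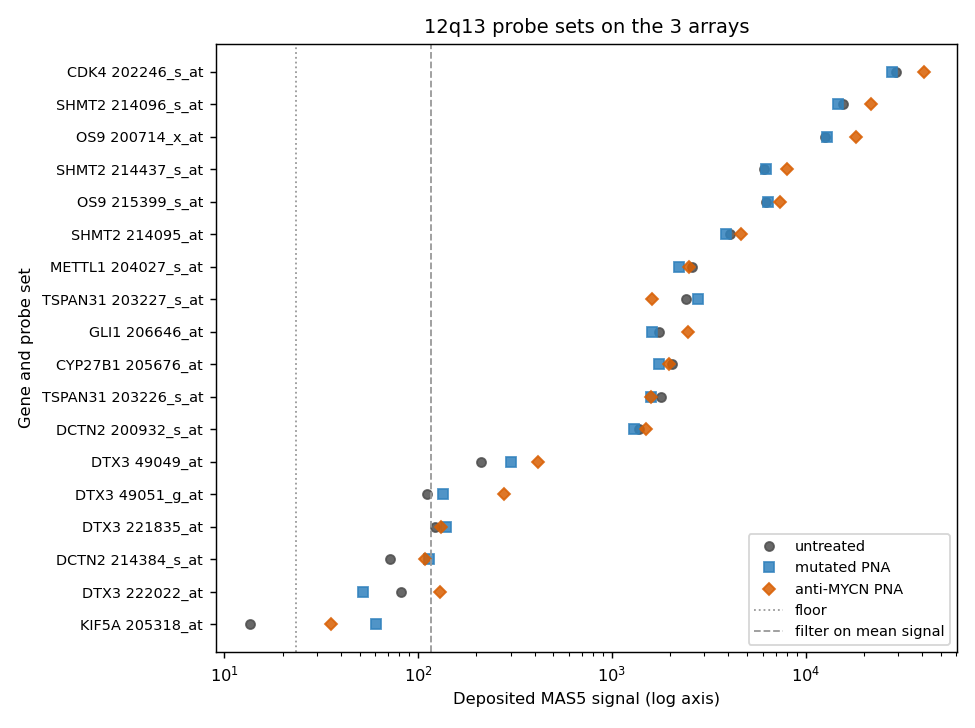
Deposited signal (log axis) of each of the 18 probe sets on the untreated (circle), mutated PNA (square) and anti-MYCN PNA (diamond) arrays, with the floor of 23.4 dotted and the filter on mean signal of 117 dashed. CDK4 lies at 28080.5 or higher on every array, and KIF5A at 60.9 or lower.

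CDK4, measured by 1 probe set only, read 29163 without PNA, 28080.5 with the mutated PNA and 40714 with the anti-MYCN PNA. Of 22215 gene probe sets these values ranked 7, 14 and 12. Of the probe sets naming 1 gene, only RPS23 was brighter on the untreated array, RPS21, RPS23, RPL31, RPL37A and RPS19 on the mutated PNA array, and RPS23, RPL37A, TPT1 and RPS19 on the anti-MYCN PNA array. All of these but TPT1 encode ribosomal proteins. The CDK4 probe set was thus as bright as those of ribosomal proteins on each array.

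SHMT2, the mitochondrial enzyme that splits serine to feed one-carbon metabolism, was next in level. Its brightest probe set read 15585 without PNA, 14654 with the mutated PNA and 21834 with the anti-MYCN PNA, at ranks 190, 202 and 175. Its other probe sets read 6109, 6251 and 8047, and 4083, 3868 and 4647, in the same order. All 3 probe sets were highest on the anti-MYCN PNA array.

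OS9, a lectin that hands misfolded glycoproteins of the endoplasmic reticulum to degradation, read 12588, 12865 and 18193 in untreated, mutated PNA and anti-MYCN PNA cells, at ranks 235, 232 and 191. That probe set carries the suffix _x_at, which marks probes that can cross-hybridise, so its level is uncertain. Its second probe set, with the suffix _s_at, read 6238, 6389 and 7388, again highest in anti-MYCN PNA cells and within 3% between the controls.

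METTL1, the enzyme that places 7-methylguanosine on tRNAs, read 2599 without PNA, 2230 with the mutated PNA and 2506 with the anti-MYCN PNA. CYP27B1, which makes the active form of vitamin D and is best known from the kidney, read 2037, 1761 and 1982, at ranks 1753, 2004 and 1751. Both genes read lowest in mutated PNA cells, with the anti-MYCN PNA array between the controls.

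GLI1 read 1757 without PNA, 1611.5 with the mutated PNA and 2469 with the anti-MYCN PNA, and its rank was 2034, 2206 and 1411. It was highest with the anti-MYCN PNA. The probe sets of the related GLI2 and GLI3 ranked 8743 and 7900 in untreated cells.

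TSPAN31, a tetraspanin membrane protein first described as a sarcoma amplified sequence, was measured by a pair of probe sets that disagree. The brighter read 2409 without PNA, 2790 with the mutated PNA and 1616 with the anti-MYCN PNA, and its rank went from 1501 and 1282 to 2161. The other read 1784, 1597 and 1586. The first places the anti-MYCN PNA array well below both controls, and the second places it 0.01 below mutated PNA on the log2 scale.

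DCTN2, the dynamitin subunit of the dynein partner dynactin, read 1378, 1297 and 1510 in untreated, mutated PNA and anti-MYCN PNA cells by its brighter probe set, at ranks 2562, 2714 and 2323. The dimmer probe set read 71.5, 114 and 109, below the filter on mean signal. The pair orders the arrays differently: anti-MYCN PNA is highest by the first and between the controls by the second.

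DTX3, an E3 ubiquitin ligase of the Deltex family, has 4 probe sets, all of modest signal. The brightest read 211 without PNA, 303 with the mutated PNA and 418 with the anti-MYCN PNA. The others read 112, 135 and 277, then 122, 140 and 132, and then 81.5, 51.9 and 129. Anti-MYCN PNA was the highest array by 3 of the 4 probe sets. Of these, the one reading 81.5, 51.9 and 129 is below the filter on mean signal. By the one reading 122, 140 and 132 anti-MYCN PNA lay between the controls. Among the 100 gene probe sets nearest to that one in signal the controls differed by up to 0.75 on the log2 scale in 95%.

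KIF5A, the neuronal heavy chain of kinesin-1, read 13.5 without PNA, 60.9 with the mutated PNA and 35.5 with the anti-MYCN PNA. The untreated value is below the floor of 23.4, the 25th percentile of all gene signals, and the mean is below the filter of 117, the 50th percentile. In this class of signal the controls differ by up to 1.45 on the log2 scale in 95% of probe sets, so no order of its arrays is read. The other 9 genes passed the filter, and 15 of the 18 probe sets. Of all 11963 genes 6745 passed.

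The levels were next set out by gene order on chromosome 12, taken from RefSeq for GRCh38.p14. The 8 measured genes that follow each other from TSPAN31 to CTDSP2, among 9 protein-coding genes there, all ranked at 3798 or better of 22215 on the untreated array, with a median of 1437. They are TSPAN31, CDK4, CYP27B1, METTL1, EEF1AKMT3, TSFM, AVIL and CTDSP2. Over all genes 21.2% reached that rank and the median was 9679. The next measured genes on either side were dim, AGAP2 with rank 13070 and SLC16A7 with rank 12605. The ends of this stretch were chosen after its values were seen.

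Within the stretch, TSFM, a mitochondrial translation elongation factor, read 7576 without PNA, 7715 with the mutated PNA and 8326 with the anti-MYCN PNA. CTDSP2, a small phosphatase, read 7929, 7668 and 9627. The lysine methyltransferase gene EEF1AKMT3, next to METTL1, read 2449, 2636 and 3575. AVIL, an actin-binding protein, read 875, 803 and 843 and was the dimmest of the 8. Between GLI1 and AGAP2 the levels were mixed: DDIT3, PIP4K2C and OS9 ranked 2140, 1099 and 235 on the untreated array, DTX3 and B4GALNT1 8996 and 5778, and KIF5A 17752.

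**Figure D2:**
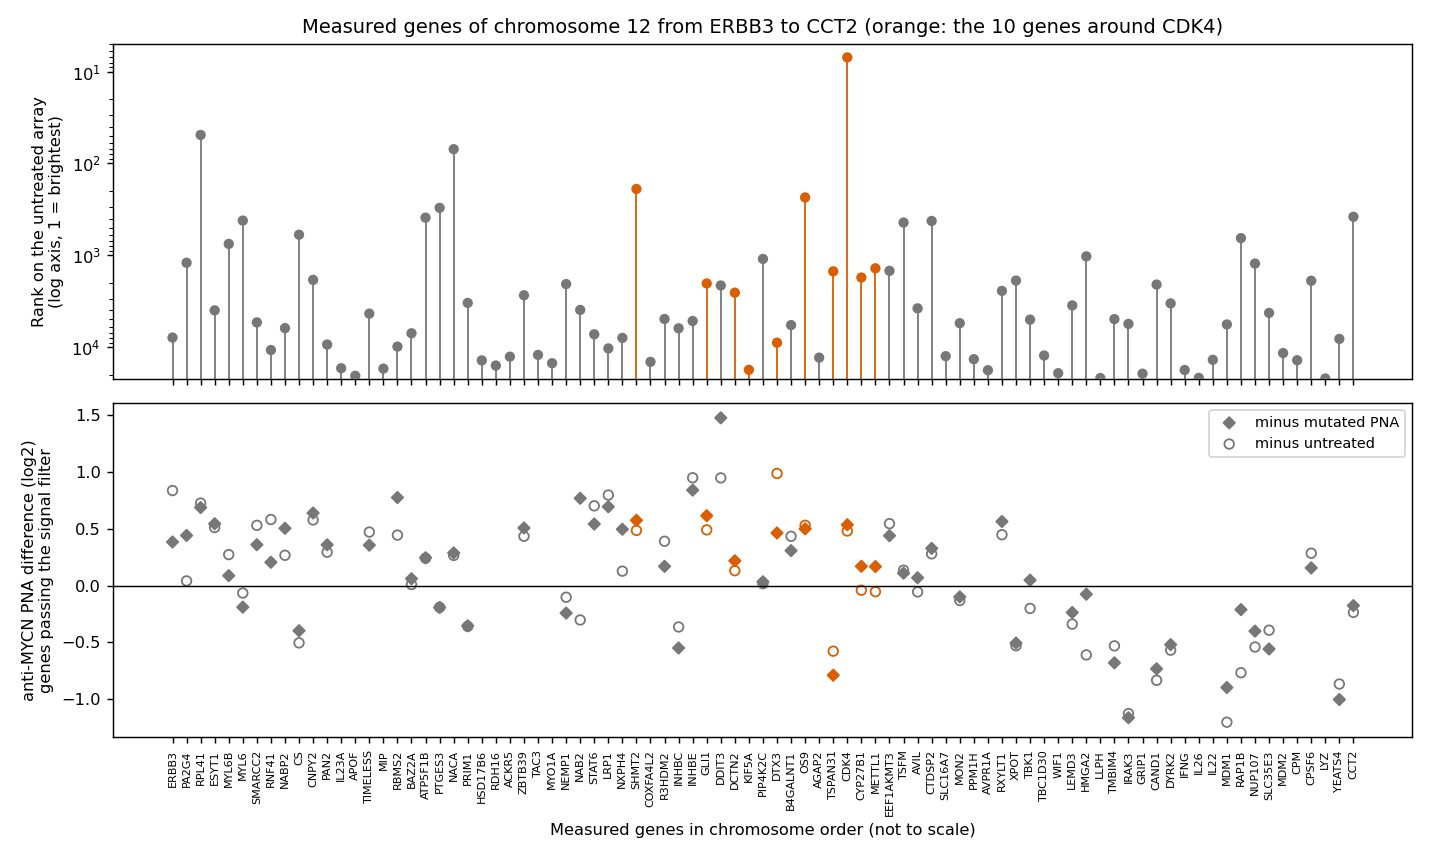
Upper panel, rank of each measured gene on the untreated array (log axis, 1 is the brightest of 22215), from ERBB3 to CCT2 in chromosome order and not to scale. Lower panel, log2 value of anti-MYCN PNA minus mutated PNA (filled) or minus untreated (open) for genes passing the filter, with the 10 genes around CDK4 in orange; genes up to CTDSP2 lie mostly above 0 and those beyond SLC16A7 mostly below.

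MDM2, which often shares the amplified region in sarcomas but lies farther along the chromosome, was dim. By an _x_at probe set it read 92.5 without PNA, 113 with the mutated PNA and 71.0 with the anti-MYCN PNA and did not pass the filter. HMGA2, an architectural chromatin protein of the same farther stretch, read 3421, 2363 and 2243, at rank 1031 on the untreated array. High rank was therefore not limited to the neighbours of CDK4.

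Setting anti-MYCN PNA beside each control asks which of these transcripts lay on the same side of both. A gene is represented by its brightest probe set and is counted when the smaller of its 2 log2 differences reaches the threshold in the same direction. Of the 9 genes passing the filter none was at least 2-fold higher and none 2-fold lower than both controls, against 1.16% and 1.26% of the 6745 genes compared. At 1.5-fold the counts were again 0 and 0, against 8.27% and 7.37%.

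Taking any size of difference, 6 of 9 lay above both controls (CDK4, OS9, GLI1, SHMT2, DTX3 and DCTN2) and 1, TSPAN31, below both, against 47.9% and 37.6% of all genes. METTL1 and CYP27B1 lay between the controls. No more is read from counts over 9 genes. When arrays were scaled to one median, 5 of 9 lay above and 3 below, against 32.3% and 52.9% of all genes, and with quantile normalization 7 and 1, against 45.5% and 39.6%. The median over the 9 genes was 0.46 against mutated PNA and 0.48 against untreated, beside 0.06 and 0.06 over all genes. With quantile normalization it was 0.23 and 0.14, and after centring each gene on the 100 probe sets nearest in signal 0.30 and 0.21. Both comparisons share the anti-MYCN PNA array.

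CDK4 was 145% of mutated PNA and 140% of untreated on the anti-MYCN PNA array, log2 differences of 0.54 and 0.48, but with quantile normalization these were 0.02 and −0.05. A probe set at ranks 7, 14 and 12 has little room to rise with quantile normalization, so these values do not tell whether CDK4 rose. The 100 gene probe sets nearest to it in control signal had median differences of 0.48 and 0.51. CDK4 lies so near the end of the scale that most of these are dimmer than it. CDK4 thus differed from the controls by about as much as those bright probe sets did. Relative to them, it stood 0.06 above mutated PNA and 0.03 below untreated (−0.03). Between the controls CDK4 differed by −0.05, and 95% of those 100 probe sets differed by at most 0.12.

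SHMT2 and OS9 share the bright end of the array with CDK4. SHMT2 was 0.58 above mutated PNA and 0.49 above untreated, and its 100 neighbours in signal had medians of 0.28 and 0.28. OS9 was 0.50 and 0.53 above, where its neighbours had 0.16 and 0.14. Of the neighbours, 95% differed from mutated PNA by at most 0.65 for SHMT2 and 0.59 for OS9. From untreated the bounds were 0.64 and 0.54, and both genes lay inside them. With quantile normalization SHMT2 kept 0.23 and 0.14, and OS9 0.29 and 0.30. Both also lay above both controls with median scaling, SHMT2 by 0.40 and 0.29 and OS9 by 0.33 and 0.33.

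GLI1 lay above both controls under each of the scalings. It was 153% of mutated PNA and 141% of untreated, or 0.62 and 0.49 on the log2 scale, 0.66 and 0.55 with quantile normalization and 0.44 and 0.29 with median scaling. Its 100 neighbours in signal had medians of −0.11 and −0.06. Of those neighbours 95% differed between the controls by at most 0.37, and GLI1 itself by −0.12. On the anti-MYCN PNA array 95% of them differed from mutated PNA by at most 0.84 and from untreated by at most 0.94, and GLI1 lay inside both. GLI1 was the one member at least 1.5-fold above mutated PNA, beside 13.1% of all genes, and DTX3 the one at least 1.5-fold above untreated, also beside 13.1%.

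TSPAN31, by its brighter probe set, was 57.9% of mutated PNA and 67.1% of untreated, differences of −0.79 and −0.58. Quantile normalization gave −0.76 and −0.53, and median scaling −0.96 and −0.78. For 95% of its neighbours in signal the controls differed by at most 0.33, and the anti-MYCN PNA array differed from mutated PNA by at most 0.74 and from untreated by at most 0.77. The difference of TSPAN31 to untreated lay inside that range and that to mutated PNA just outside. It was the one member at least 1.5-fold below mutated PNA, beside 10.7% of all genes, and none was that far below untreated, beside 10.4%. With the median over both probe sets the difference to mutated PNA was −0.40, because the second probe set hardly differed.

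DTX3 was above mutated PNA by 0.46 and above untreated by 0.99, and mutated PNA was itself above untreated by 0.52. Of the 100 gene probe sets nearest to it in signal, 95% differed between the controls by at most 0.54. On the anti-MYCN PNA array 95% of them differed from mutated PNA by at most 1.02 and from untreated by at most 1.15. By this brightest probe set DTX3 lay inside both. The DTX3 probe set reading 112, 135 and 277 was 1.03 above mutated PNA and 1.31 above untreated. The bounds of its own neighbours were 1.09 and 1.16, so it lay inside the first and outside the second. The remaining DTX3 probe sets lay inside the bounds of their neighbours. DCTN2 was 0.22 and 0.13 above, METTL1 0.17 above mutated PNA and 0.05 below untreated (−0.05), and CYP27B1 0.17 above and 0.04 below (−0.04). All 3 are smaller than the 0.45, 0.40 and 0.40 by which 95% of their signal neighbours differed between the controls. For METTL1 and CYP27B1 the sign against untreated flipped with quantile normalization and that against mutated PNA with median scaling, and for DCTN2 the sign against untreated flipped with median scaling.

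**Figure D3:**
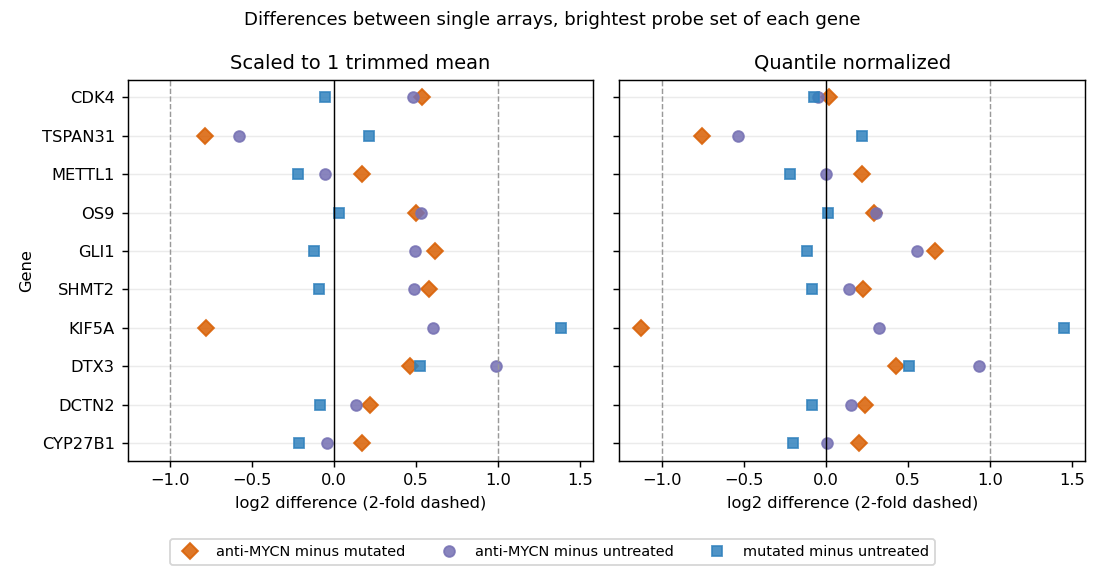
Log2 differences between single arrays for the brightest probe set of each of the 10 genes, scaled to 1 trimmed mean (left) and quantile normalized (right), with 2-fold dashed. The anti-MYCN PNA differences of CDK4, 0.54 and 0.48 on the left, lie at 0.02 and −0.05 on the right, while those of GLI1 and TSPAN31 stay in place.

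The anti-MYCN PNA array differs from the controls as a whole in ways that accompany these values. All 24 probe sets of the bacterial poly-A spikes were lower on it, with a median ratio of 0.382 to mutated PNA and 0.410 to untreated, and its brightest signals were stronger, with a highest gene signal of 50332 against 33282 and 32467. With genes in 10 classes of control signal, the median difference to mutated PNA was 0.36 in the dimmest class, −0.07 in the class holding TSPAN31, METTL1 and CYP27B1, and 0.03 in the brightest. That class spans control signals from 3228 to 30785. It holds CDK4, OS9 and SHMT2, whose 100 nearest probe sets had the higher medians given above. The part of the spikes and of these signal trends in the differences was not tested. The targeted gene, MYCN, read 3313 without PNA, 2804 with the mutated PNA and 2202 with the anti-MYCN PNA. Its log2 differences were −0.35 to mutated PNA and −0.59 to untreated, and −0.24 between the controls. In its class of control signal, that of TSPAN31, 95% of genes differed between the controls by up to 0.37. The MYCN difference to mutated PNA lay inside that bound and that to untreated outside. Of 15 muscle and tumour markers of RH30, 11 passed the filter, beside 6745 of all 11963 genes. MYOD1 read 6715, 6265.5 and 7834, while MYF5, MYF6, PAX7 and NOS1 were dim. Of the other cells' markers, 1 of 5 epithelial, none of 3 leukocyte, none of 3 endothelial and 1 of 5 fibroblast genes passed.

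**Figure D4:**
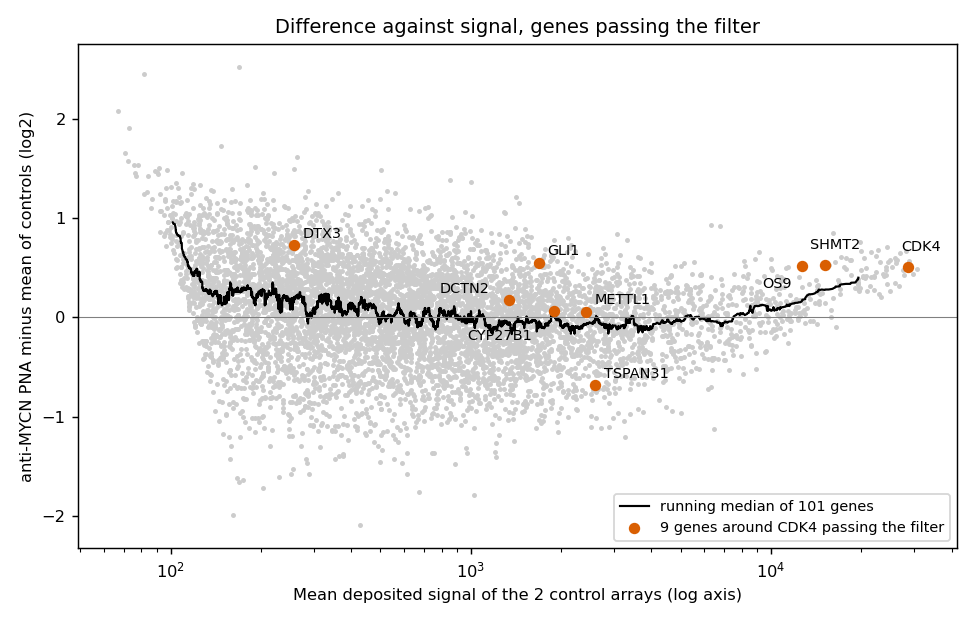
Anti-MYCN PNA minus the controls' mean (log2) against mean control signal (log axis) for the 6745 genes passing the filter, with a running median over neighbouring genes in black and the 9 genes around CDK4 in orange. The running median is raised at the dim and bright ends; CDK4 lies near the other bright genes, GLI1 above the median and TSPAN31 below it.

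Between the controls the 9 genes had a median of −0.09, mutated PNA minus untreated, beside 0.00 over all genes. None differed by 1.5-fold, against 2.4% of genes higher and 2.27% lower. DTX3 at 0.52 and METTL1 at −0.22 were furthest, but the other DTX3 probe sets gave 0.28, 0.20 and −0.65, and the median over its probe sets was 0.24. Each of the 9 lies within the range that holds 95% of its 100 neighbours in signal, the bound being 0.54 for DTX3 and 0.40 for METTL1.

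The 5 genes whose 3-array pattern was closest to that of CDK4, by distance between the pair of log2 differences to untreated among 6744 genes, were TRIM28, CXXC1, MPST, XPO6 and COL4A2, at distances from 0.003 to 0.019. TRIM28, a corepressor of transposons, read 3137 without PNA, 3022 with the mutated PNA and 4371 with the anti-MYCN PNA. These distances are with trimmed mean scaling, and no nearest genes were sought with quantile normalization.

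Other 12q13 genes, from a list of neighbours, mostly lay above both controls. Of 31 neighbours listed from 12q13, 23 were on the array and 17 passed the filter, of which 13 lay above both controls and 2 below, beside the 47.9% and 37.6% of all genes given before, with medians of 0.44 against mutated PNA and 0.39 against untreated. At 1.5-fold 3 were higher and none lower, beside 8.27% and 7.37% of all genes. DDIT3, the stress factor CHOP, read 1672 without PNA, 1159 with the mutated PNA and 3226 with the anti-MYCN PNA. INHBE, an inhibin subunit, read 582, 627 and 1123, LRP1, an endocytic receptor, 139, 149 and 242, and STAT6, the factor downstream of interleukin-4, 333, 372 and 541. With quantile normalization the medians were 0.43 and 0.40.

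Genes farther along, in 12q14 to 12q15, leaned the other way. Of 20 listed, 17 were on the array and 12 passed, of which 11 lay below both controls and 1 above, beside the same background, with medians of −0.46 and −0.55. IRAK3, an inhibitor of Toll-like receptor signalling, was at least 2-fold lower and read 521 without PNA, 534 with the mutated PNA and 239 with the anti-MYCN PNA. YEATS4, a histone acetylation reader, read 263, 289 and 144, CAND1, an exchange factor of cullin ligases, 1708, 1593 and 959, and TMBIM4, by an _x_at probe set, 615, 682 and 426. Quantile normalization left the medians at −0.44 and −0.55. In gene order, 29 of 36 passing genes from ERBB3 to AGAP2 lay above both controls, beside 47.9% of all genes. From SLC16A7 to CCT2, 14 of 17 lay below, beside 37.6% of all genes. The stretch between those runs, from TSPAN31 to CTDSP2 with CDK4, had 4 of 8 above and 1 below, with medians of 0.17 and 0.05. Members and genes of both lists are part of these runs, so the counts in gene order largely repeat those given before. The ends of those runs too were chosen after the values were seen, and neighbouring genes were not shown to move as a unit.

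Of CDK4's partners 16 of 18 on the array passed, 7 above both controls and 6 below, beside 47.9% and 37.6% of all genes, with medians of 0.07 and 0.02. E2F1, the factor released when the retinoblastoma protein is phosphorylated, was at least 2-fold higher, at 464 without PNA, 496 with the mutated PNA and 1012 with the anti-MYCN PNA. The pocket proteins RBL1 and RBL2 were lower, RBL2 at 635, 576 and 343 and RBL1 at 261, 286.5 and 182.5, as was the cyclin CCNE2 at 767, 915 and 556.

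In the hedgehog list, around GLI1, 7 of 9 passed, 3 above and 2 below, beside 47.9% and 37.6% of all genes, with medians of −0.02 and 0.51. The second median was −0.16 over the 3 genes left by a filter at the 75th percentile. SMO, the signal transducer, read 202 without PNA, 160 with the mutated PNA and 375 with the anti-MYCN PNA, GLI2 225, 226 and 346, and GLI3 282, 286 and 416. PTCH1, the receptor and itself a target of GLI factors, read 2081, 2046 and 1728, differences of −0.24 to mutated PNA and −0.27 to untreated. GLI1 and PTCH1 thus lay on opposite sides of the controls. In the class of control signal that holds PTCH1, however, 95% of genes differed between the controls by up to 0.37. No direction is therefore read for PTCH1.

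Around SHMT2, 8 of 13 serine and folate genes passed, 2 above both controls and 6 below, beside 47.9% and 37.6% of all genes, with medians of −0.32 and −0.27. DLD, the shared dehydrogenase subunit, read 2851 without PNA, 2916 with the mutated PNA and 1584 with the anti-MYCN PNA. PSPH, the last enzyme of serine synthesis, read 207, 265 and 129, and the folate enzymes MTHFD2 and MTHFD1 4692, 4861 and 3626, and 3288, 3722 and 2595.

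Of dynactin and kinesin-1 genes, around DCTN2 and KIF5A, all 15 on the array passed, 6 above and 7 below, beside 47.9% and 37.6% of all genes, with medians of −0.02 and 0.01. KIF5B, the widely expressed kinesin-1 heavy chain, read 8261 without PNA, 7891 with the mutated PNA and 5456 with the anti-MYCN PNA. Its light chain KLC1 read 1912, 1976 and 3096, and the dynein heavy chain DYNC1H1 2846, 2587 and 3920. The dynactin subunit DCTN1 read 884.5, 920.5 and 1322 by an _x_at probe set.

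For the degradation machinery around OS9, all 12 on the array passed, 4 above and 6 below, beside 47.9% and 37.6% of all genes, with medians of −0.04 and 0.00. None was 1.5-fold higher or lower than both controls, beside 8.27% and 7.37% of all genes. HSP90B1, the chaperone that OS9 binds, was lowest in anti-MYCN PNA cells at 932, where the untreated array read 1507.5 and mutated PNA 1267, by an _x_at probe set. The conjugating enzyme UBE2G2 read 465, 475 and 636 in the usual order of arrays, UBE2J1 397, 417 and 351, and EDEM2 228, 173 and 279.7.

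The last 3 lists were small. In the vitamin D list 3 of 6 passed, with RXRA, the partner of the vitamin D receptor, at 731 without PNA, 879 with the mutated PNA and 1378 with the anti-MYCN PNA, DHCR7 at 935, 819 and 1068, and CYP2R1 at 132, 140.0 and 103.5. In the tRNA methylation list 6 of 8 passed, 4 above and none below, beside 47.9% and 37.6% of all genes, with TRMT61A at 284, 274 and 487, TRMT1 at 923, 684.5 and 1131, and METTL3 at 2182, 2251 and 2410. TRMT5, one of those 4, by a very bright _x_at probe set, read 16799, 17140 and 20694, and its direction turned with quantile normalization. In the Deltex and Notch list, around DTX3, 11 of 12 passed, 5 above and 3 below, beside 47.9% and 37.6% of all genes. The receptor NOTCH3 was at least 2-fold higher, at 675.5, 735 and 1512. NOTCH1 read 409, 469 and 658, DTX4 1354, 1177 and 1602, and ITCH, by an _x_at probe set, 397, 402.5 and 442.5. The medians of the 12q13, 12q14 to 12q15, serine and folate and tRNA methylation lists kept their sign under quantile normalization and median scaling, and each of the other 6 lists had a median that changed sign under at least one of them.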

How the data were processed

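Total RNA of RH30 cells was labelled with biotin by the one-cycle protocol and hybridised to 3 Affymetrix arrays, 1 per condition, per the labels. The authors deposited 1 linear signal intensity for each probe set. Per the submitters' processing notes, GCOS and its MAS5 algorithm produced it. The 2% trimmed mean was 500.2 on each array. Of 22277 probe sets 62 are controls. A platform annotation names 1 gene for 19064, several for 1043 and none for 2108, and 19052 matched RefSeq of GRCh38.p14 for symbols and gene order.

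Ranks use deposited signals among 22215 gene probe sets. For differences, arrays were scaled to one trimmed mean of 500, signals under the 25th percentile (23.4) set to it, and log2 taken. Genes with a mean signal of at least the 50th percentile (117) were kept, each by its brightest probe set. Single arrays allow no test. The 2-fold rule was checked on simulated data. Their spread between arrays was set smaller than in these data and without a trend with signal. The check therefore gives no rate of false calls for these arrays. Genes were named by rule: all 10 members, MYCN, up to 4 per list by the difference to the nearer control, and 5 nearest to CDK4; MDM2, HMGA2, TSFM, CTDSP2, EEF1AKMT3, AVIL, PIP4K2C, B4GALNT1, AGAP2, SLC16A7, ERBB3, CCT2, the genes brighter than CDK4 and the RH30 markers singled out were added after their values were seen. Members and lists were chosen with earlier results of these data known. The number of arrays limits the precision. Scripts ran in Python 3.11.15 with pandas 2.3.3, numpy 2.4.6, matplotlib 3.10.9 and scipy 1.17.1.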

Additional observations from a re-analysis of the deposited data

How the results depend on the processing

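The alternatives were deposited signals, quantile normalization, median scaling, no floor, a pseudocount of 16, the median over probe sets, leaving out _x_at and _s_at probe sets, a filter set at the 75th percentile or none, thresholds of 1.5-fold and 3-fold, and, chosen after seeing the data, centring each difference on the 100 probe sets nearest in control signal. No member, by its brightest probe set or the median over its probe sets, was 2-fold from both controls under any of them. Taken alone, the DTX3 probe set reading 112, 135 and 277 was over 2-fold above mutated PNA and untreated, by 1.03 and 1.31 on the log2 scale. The count of 7 of 10 in the top 10% was also 7 under the 5 scalings and floors, which keep the order within an array at these signals and so could not change it. Without _x_at and _s_at probe sets 4 of the members were left, 3 of them above both controls and 0 below. Over the 4004 genes left under that setting, 45.1% lay above both and 40.5% below. CDK4, whose only probe set is an _s_at one, was not among those left. Quantile normalization moved the median difference to mutated PNA from 0.46 to 0.23 and that to untreated from 0.48 to 0.14, and the median over probe sets turned that between the controls from −0.09 to 0.03. CDK4 itself lay 0.02 above mutated PNA and at −0.05 to untreated with quantile normalization, and at 0.06 and −0.03 after centring. Its rank near the top leaves it little room to rise with quantile normalization, and its neighbours in signal are mostly dimmer. Median scaling moved the median of all genes to −0.11 against mutated PNA and −0.14 against untreated, from 0.06 each. No paired analysis was possible because each condition has 1 array. Dim signals limit DTX3 and KIF5A.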
